A study of Mus musculus with 6 samples.

Results

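The 10 genes described here encode regulators that have been linked to alternative (M2) activation of macrophages (Mφs). They are *Pparg*, *Ppard*, *Rxra*, *Ppargc1b*, *Klf4*, *Klf2*, *Myc*, *Kdm6b*, *Bhlhe40* and *Bhlhe41*. They were chosen by gene symbol from a table of 41549 mouse genes, in which all 10 were found. Both these genes and the gene lists below were chosen with earlier results of these data known. The shares of all genes set beside their counts are therefore a description and not an independent test. Of the 10 genes, 8 encode DNA-binding transcription factors, while *Ppargc1b* encodes a coactivator and *Kdm6b* a histone demethylase. The genes were compared between M2 Mφs in which 5′tRF-Glu(CTC), a piece of glutamate tRNA that begins at its 5′ end, had been blocked and M2 Mφs given a control.

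Both groups consisted of bone marrow-derived Mφs, which were grown with macrophage colony-stimulating factor from the leg bones of wild type C57BL/6N young adult mice. All cells received a locked nucleic acid inhibitor by lipofection and were then exposed to IL-4 and IL-13. As the study describes them, the groups differed in the inhibitor, which was a control antisense oligonucleotide (ASO) in Ctr and an ASO against 5′tRF-Glu(CTC) in αGlu. Each group had 3 libraries of polyadenylated RNA, which the study described as independent experiments. The labels gave no sex, batch or date. The target and the inhibitor are shown because they define the groups, with the bases that pair in capitals. The inhibitor pairs with bases 2 to 21 of the 21 bases given as its target, and both are written 5′ to 3′ as DNA letters.
5′tRF-Glu(CTC) target: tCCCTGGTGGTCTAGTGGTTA
antisense inhibitor: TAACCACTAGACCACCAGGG

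In M2 activation, IL-4 and IL-13 act through the transcription factor STAT6, which switches on both effector genes and further regulators. PPARγ and PPARδ are fatty acid-activated nuclear receptors that bind DNA together with RXRα, and PGC-1β, the product of *Ppargc1b*, is a coactivator of mitochondrial and fatty acid oxidation genes. KLF4 cooperates with STAT6, KLF2 restrains inflammatory gene expression, MYC drives growth genes, and KDM6B removes the repressive methyl mark from lysine 27 of histone H3. BHLHE40 and BHLHE41 are E-box repressors known for sustaining the self-renewal of tissue-resident Mφs.

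The libraries held from 17912831 to 30386653 reads, and from 14539 to 15295 genes had at least 1 read. The library αGlu 1 stood apart from the rest of its group. Across the 11933 genes tested, its log2 CPM (counts scaled to a common library size) correlated with αGlu 2 and αGlu 3 at a Pearson r of 0.929 and with the Ctr libraries at 0.966 to 0.982, whereas αGlu 2 and 3 correlated at 0.992 with each other. Genes are not independent replicates, and these correlations are given as a description. The fitted differences of the 10 genes are therefore given with and without αGlu 1. The fit without it compares only αGlu 2 and 3 with the Ctr libraries. αGlu 1 was left out after its values were seen, so the standard errors and p-values of that fit lack the spread it adds. The labelled cell type was checked against its markers, and all 8 Mφ markers were present, with a summed level of 11850 to 13400 CPM in Ctr and 12590 to 18780 CPM in αGlu. Markers of 5 other cell types were low in all libraries, with sums of at most 6.44 CPM for 8 neutrophil and granulocyte precursor markers (*Ly6g* at 0), 1.25 for 5 dendritic cell markers (*Xcr1* at 0), 0.772 for 4 B cell markers, 0.0944 for 4 T cell markers (*Cd3g* at 0) and 3.79 for 4 mast cell and basophil markers. The sum of 5 fibroblast and stroma markers was 7.31, 0.961 and 1.86 CPM in Ctr 1, 2 and 3 and 2.58, 0.189 and 0.0734 CPM in αGlu 1, 2 and 3, and its part in the results was not tested.

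The first comparison asked which of the 10 regulators differed once the tRNA fragment was inhibited. In αGlu 2 and 3, 7 of the 10 genes lay below every Ctr library, namely *Pparg*, *Myc*, *Klf2*, *Bhlhe41*, *Klf4*, *Bhlhe40* and *Ppargc1b*, whereas *Ppard* lay above. *Rxra* and *Kdm6b* overlapped with Ctr. αGlu 1 was within the Ctr range for *Rxra*, *Ppargc1b* and *Kdm6b* and above it for *Ppard* and *Bhlhe41*. With all 6 libraries, edgeR's quasi-likelihood test called 0 of the 10 genes, where a call needed a Benjamini-Hochberg adjusted p under 0.1 and more than 1 unit of log2 fold change in either direction. It called 0 of the 11933 genes tested (0%). The lowest adjusted p among the 10 genes was 0.156. An unadjusted p under 0.05 was found for 5 of the 10 genes, 4 lower and 1 higher in αGlu, against 24.7% of all tested genes in either direction, of which 12.7% higher and 11.9% lower. For 6 genes the groups did not overlap, 5 lower and 1 higher, against 30.2% of all tested genes. The median log2 fold change of the 10 genes was -0.69, compared with 0.016 over all tested genes. In a bulk library, fewer cells that express a gene cannot be told apart from less RNA per cell.

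Without αGlu 1, the same test called 5 genes, all lower in αGlu, against 18.6% of the 12340 genes tested in that fit (8.05% higher and 10.5% lower). They were *Pparg*, *Myc*, *Klf2*, *Bhlhe41* and *Klf4*. *Bhlhe40*, *Ppargc1b* and *Ppard* had an adjusted p under 0.1 without reaching the fold limit. Those 8 genes with an adjusted p under 0.1 compare with 49.1% of the genes in that fit. For the same 8 genes αGlu 2 and 3 did not overlap with Ctr, as was the case for 65.8% of the genes tested with all libraries (33.6% higher and 32.2% lower). The median log2 fold change of the 10 genes was -1.01 without αGlu 1, and that of all genes was 0.013. DESeq2 on all 6 libraries called 2 of the 10 genes, *Myc* and *Klf2*, against 8.16% of its genes. The edgeR likelihood-ratio test called *Myc*, against 7.53%. *Bhlhe40*, *Klf4* and *Ppard* had an adjusted p under 0.1 in both tests without reaching the fold limit. It was 0.0038, 0.0118 and 0.0437 by DESeq2 and 0.0327, 0.0166 and 0.069 by the likelihood-ratio test. The share of all genes at that p was not computed for these tests.

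**Figure D1:**
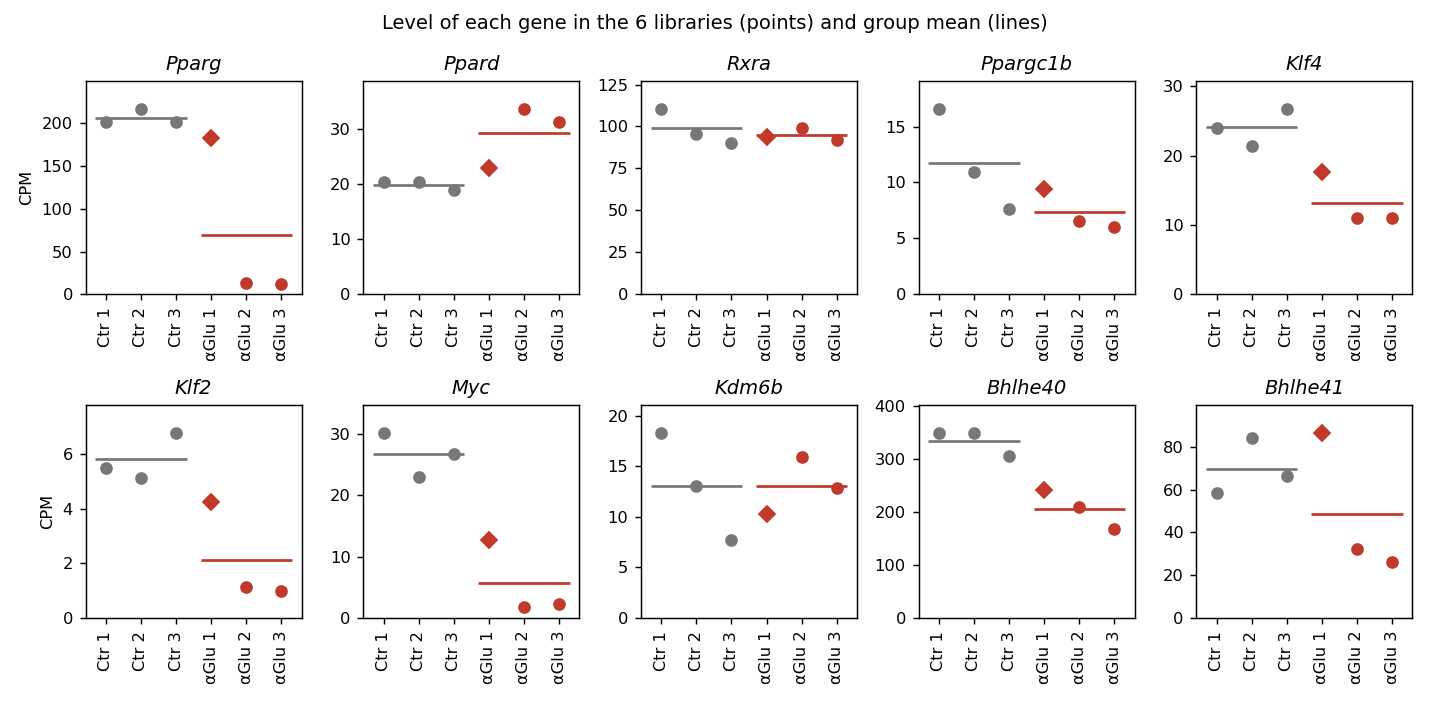
Level of each of the 10 genes in CPM (y axis, starting at 0) in the 3 Ctr (grey) and 3 αGlu (red) libraries, with αGlu 1 as a diamond and each group mean as a line. For *Pparg*, *Klf2* and *Myc*, αGlu 2 and 3 lie far below all Ctr libraries and αGlu 1 lies in between, while *Rxra* and *Kdm6b* overlap between groups.

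The nuclear receptor genes took 3 different courses. *Pparg* (GRCm38 chr6:115360951-115490399, plus strand) encodes the fatty acid receptor PPARγ. Its level was 201.1, 216.7 and 200.8 CPM in Ctr 1, 2 and 3 and 182.7, 13.0 and 12.4 CPM in αGlu 1, 2 and 3. All αGlu libraries were below all Ctr libraries, but αGlu 1 was near to Ctr while the other αGlu libraries held 413 and 337 reads against 4327 to 5185 in Ctr. The log2 fold change was -1.58 ± 1.08 (SE, n = 3 per group; edgeR adjusted p = 0.373), with a 95% interval from -4.22 to 1.07. Without αGlu 1 it was -4.03 ± 0.098, a 16.3-fold lower level (edgeR adjusted p = 7.38e-06). The value with all libraries also depended on the model, since limma-voom gave -2.86 (adjusted p = 0.188) and the fit with the replicate number as a block gave -2.89 (adjusted p = 0.222).

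*Ppard* (chr17:28232700-28301474, plus strand) encodes PPARδ, the second PPAR of these Mφs. It was at 20.4, 20.4 and 19.0 CPM in Ctr 1, 2 and 3 and at 22.9, 33.7 and 31.3 CPM in αGlu 1, 2 and 3. Every αGlu library was above every Ctr library, and this was the only one of the 10 genes for which that held. Its fitted log2 fold change was 0.56 ± 0.15 with all libraries (edgeR adjusted p = 0.157). Without αGlu 1 it was 0.70 ± 0.079 (edgeR adjusted p = 0.000978), a 1.63-fold higher level.

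*Rxra* (chr2:27676440-27762957, plus strand) encodes the shared partner RXRα. It was at 110.5, 95.7 and 90.3 CPM in Ctr, compared with 93.5, 99.3 and 91.8 CPM in αGlu. The groups overlapped, and the log2 fold change was -0.06 ± 0.099 (edgeR adjusted p = 0.716) with a 95% interval from -0.30 to 0.18, and -0.05 ± 0.11 without αGlu 1 (edgeR adjusted p = 0.723). *Ppargc1b* (chr18:61298136-61400431, minus strand), which encodes the coactivator PGC-1β, was at 16.6, 10.9 and 7.61 CPM in Ctr, compared with 9.41, 6.58 and 6.05 CPM in αGlu. The Ctr libraries differed by more than 2-fold among themselves, and αGlu 1 was within their range. Its fitted log2 fold change was -0.68 ± 0.32 (edgeR adjusted p = 0.244), and -0.89 ± 0.32 without αGlu 1 (edgeR adjusted p = 0.0666).

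The levels of both PPAR genes were also compared within each library, in TPM, which scales reads for transcript length and depth. The ratio of *Pparg* to *Ppard* TPM was 25.1, 27.04 and 26.9 in Ctr 1, 2 and 3. It was 20.3 in αGlu 1, but 0.981 and 1.01 in αGlu 2 and 3, where the 2 genes had about the same level. The ratio of *Pparg* to *Rxra* TPM was 3.88, 4.83 and 4.74 in Ctr and 4.17, 0.280 and 0.287 in αGlu. *Pparg* thus exceeded its partner's level in 4 libraries and was below it in αGlu 2 and 3.

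The rest of the nuclear receptor machinery was described from a list of 20 genes of receptor partners and coregulators, of which 17 were tested. Of these, 4 lay higher and 2 lower in αGlu without overlap, near the share of all tested genes (14.2% higher and 15.9% lower), and the median log2 fold change was -0.005. *Rara*, which encodes the retinoic acid receptor α, was at 15.04, 14.4 and 17.9 CPM in Ctr, compared with 18.8, 31.1 and 29.6 CPM in αGlu. *Med1*, a Mediator subunit that contacts nuclear receptors, was at 48.2 to 59.7 CPM in Ctr and 67.9 to 71.1 CPM in αGlu. *Nr1h3*, which encodes the oxysterol receptor LXRα, was at 73.1 to 96.5 CPM in Ctr and 59.7 to 74.6 CPM in αGlu, so that the groups overlapped. The edgeR adjusted p of these genes lay between 0.158 and 0.174 with all libraries. Without αGlu 1, 1 of the 17 genes was called, fewer than the 18.6% of all genes called in that fit. It was *Vdr*, the vitamin D receptor gene, at a low level of 0.882 to 1.13 CPM in Ctr and 0.110 to 0.688 CPM in αGlu. *Vdr* was named after its values were seen.

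Most of the genes tested that PPAR-RXR dimers are known to switch on were lower in αGlu 2 and 3, as *Pparg* was. Whether their levels depend on that of *Pparg* was not tested. The list held 19 genes of fatty acid uptake, storage and oxidation, 16 of which were tested. With all libraries 0 were called by edgeR or DESeq2, 8 had an unadjusted edgeR p under 0.05 (all lower), 12 lay lower without overlap and 0 higher, against 15.9% and 14.2% of all tested genes, and 15 of 16 fold changes were negative, with a median of -0.61. Without αGlu 1, 8 of 16 were called, all lower, against 10.5% of all genes called lower in that fit, and the median was -0.88. By the smallest p, *Etfdh* of electron transfer to the respiratory chain was at 44.9 to 50.7 CPM in Ctr and 38.1 to 39.6 CPM in αGlu, with a log2 fold change of -0.28 ± 0.073 (edgeR adjusted p = 0.156) and of -0.30 without αGlu 1. *Acadm*, the medium-chain acyl-CoA dehydrogenase, had a log2 fold change of -0.29 ± 0.090 (edgeR adjusted p = 0.160) and of -0.30 without αGlu 1. *Hadhb*, a subunit of the mitochondrial trifunctional protein, had one of -0.79 ± 0.25 (edgeR adjusted p = 0.162) and of -1.11 without αGlu 1, where it was the only one of these genes called.

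The largest differences in the list, chosen after the values were seen, were in fatty acid uptake and storage genes. *Lpl*, lipoprotein lipase, was at 3748, 3671 and 3563 CPM in Ctr 1, 2 and 3 and at 1977, 102.1 and 101.4 CPM in αGlu 1, 2 and 3. *Cd36*, a fatty acid and oxidized lipoprotein receptor, was at 2897, 2460 and 2334 CPM in Ctr, compared with 2413, 453.1 and 299.9 CPM in αGlu. *Angptl4*, an inhibitor of lipoprotein lipase, held 135, 159 and 142 reads in Ctr and 75, 5 and 2 reads in αGlu. αGlu 1 was below Ctr for *Lpl* and *Angptl4* but within the Ctr range for *Cd36* and *Plin2*. *Acadvl*, the very long-chain acyl-CoA dehydrogenase, did not follow the others, with 56.6 to 59.9 CPM in Ctr and 57.95 to 62.3 CPM in αGlu.

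**Figure D2:**
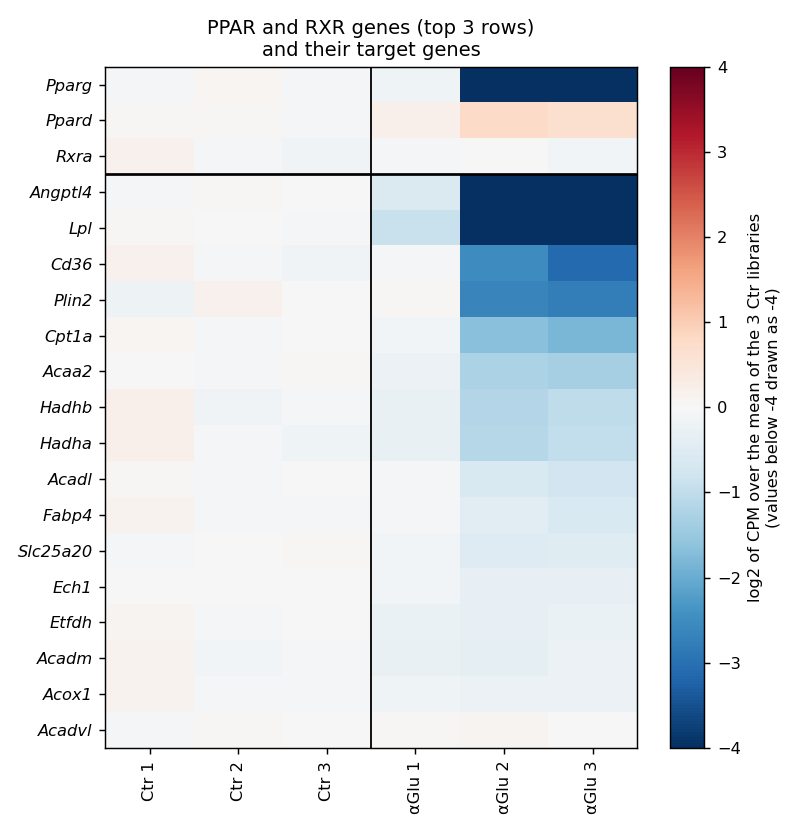
Levels of the PPAR and RXR genes (top 3 rows) and of the 16 tested PPAR-RXR target genes in each library, as the log2 of CPM over the mean of the 3 Ctr libraries (colour, values below -4 drawn as -4). Blue cells (lower than Ctr) concentrate in αGlu 2 and 3, darkest for *Pparg*, *Lpl* and *Angptl4*, while *Ppard* is red and *Rxra* and *Acadvl* are near white.

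Both Krüppel-like factor genes were lower in every αGlu library. *Klf4* (chr4:55527143-55532466, minus strand) was at 23.99, 21.5 and 26.8 CPM in Ctr 1, 2 and 3 and at 17.6, 10.95 and 11.04 CPM in αGlu 1, 2 and 3. The groups did not overlap, and the log2 fold change was -0.87 ± 0.22 (edgeR adjusted p = 0.156). Without αGlu 1 it was -1.13 ± 0.12 (edgeR adjusted p = 0.000713), a 2.19-fold lower level. *Klf2* (chr8:72319033-72321656, plus strand) was at 5.50, 5.099 and 6.77 CPM in Ctr, compared with 4.24, 1.13 and 0.990 CPM in αGlu. It was the least covered of the 10 genes, with 121, 122 and 146 reads in Ctr and 74, 36 and 27 reads in αGlu. With all libraries the log2 fold change was -1.48 ± 0.59 (edgeR adjusted p = 0.195), and -2.44 ± 0.23 without αGlu 1, a 5.43-fold lower level (edgeR adjusted p = 0.00054). DESeq2 on all libraries gave *Klf2* an adjusted p of 0.0938. Its log2 fold change with all libraries was -1.915 by limma-voom and -1.752 with the replicate block (adjusted p = 0.134 and 0.194).

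*Klf2* was lower relative to *Klf4* in αGlu 2 and 3. The ratio of *Klf4* to *Klf2* TPM was 2.64, 2.55 and 2.39 in Ctr 1, 2 and 3, 2.51 in αGlu 1, and 5.86 and 6.75 in αGlu 2 and 3. αGlu 1 was within the Ctr range of this ratio although both genes were below Ctr in it. Of 15 other KLF family genes, 9 were tested. Without overlap, 2 lay lower and 0 higher in αGlu, against 15.9% and 14.2% of all tested genes, and the median log2 fold change was -0.12. *Klf9* was at 77.0, 81.2 and 61.2 CPM in Ctr, compared with 37.8, 8.85 and 6.13 CPM in αGlu, with a log2 fold change of -2.07 ± 0.70 (edgeR adjusted p = 0.170) and of -3.29 without αGlu 1. *Klf10* was at 43.1 to 56.2 CPM in Ctr and 24.8 to 35.7 CPM in αGlu. *Klf3* was at 35.4 to 40.4 CPM in Ctr and 40.4 to 51.0 CPM in αGlu, where the groups touched. Without αGlu 1, *Klf9* and *Klf11* were called lower and *Klf7* higher, against 10.5% of all genes called lower and 8.05% called higher in that fit. *Klf11* and *Klf7* were named after their values were seen.

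*Myc* (chr15:61985391-61990374, plus strand) encodes the growth factor-responsive regulator MYC, which binds E-boxes together with MAX. It was at 30.2, 23.0 and 26.7 CPM in Ctr 1, 2 and 3 and at 12.8, 1.79 and 2.31 CPM in αGlu 1, 2 and 3. All αGlu libraries were below all Ctr libraries, and for this gene αGlu 1 also lay well below the lowest Ctr value. The reads were 551 to 665 in Ctr and 223, 57 and 63 in αGlu. For *Myc* the log2 fold change was -2.28 ± 0.77 with all libraries (edgeR adjusted p = 0.170), with a 95% interval from -4.16 to -0.41. Without αGlu 1 it was -3.71 ± 0.18, a 13.1-fold lower level (edgeR adjusted p = 4.95e-05). *Myc* was the only one of the 10 genes called both by DESeq2 (adjusted p = 0.0240) and by the edgeR likelihood-ratio test (adjusted p = 0.0472) on all libraries. Its log2 fold change with all libraries was -3.059 by limma-voom and -2.795 with the replicate block (adjusted p = 0.127 and 0.160).

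The partners and competitors of MYC were mixed in direction. Of 12 genes of the MYC-MAX-MXD network, 8 were tested, with 1 higher and 1 lower without overlap and the same counts at an unadjusted edgeR p under 0.05, close to the shares of all tested genes (30.2% without overlap and 24.7% at that p). edgeR called 0 with or without αGlu 1, and DESeq2 called 0. *Mxd1*, which encodes a repressor that competes with MYC for MAX, was at 13.0, 13.0 and 13.9 CPM in Ctr and 15.7, 21.3 and 20.3 CPM in αGlu, with a log2 fold change of 0.53 ± 0.13 (edgeR adjusted p = 0.156) and of 0.64 without αGlu 1. The ratio of *Myc* to *Mxd1* TPM was 6.05, 4.63 and 5.01 in Ctr, 2.12 in αGlu 1, and 0.220 and 0.297 in αGlu 2 and 3. *Mxd4*, another repressor of the family, was at 75.1 to 105.1 CPM in Ctr and 41.0 to 57.4 CPM in αGlu (log2 fold change -0.82 ± 0.18, edgeR adjusted p = 0.153, and -0.95 without αGlu 1). *Mnt* overlapped between groups, with 63.7 to 81.4 CPM in Ctr and 41.4 to 71.5 CPM in αGlu. Genes of ribosome assembly and growth that MYC is known to activate showed small differences. Of 18 tested, 6 lay lower and 1 higher without overlap, against 15.9% and 14.2% of all tested genes, and the median log2 fold change was -0.083. edgeR called 0 with or without αGlu 1 and DESeq2 called 0, with 5 lower and 1 higher at an unadjusted edgeR p under 0.05, against 11.9% and 12.7% of all tested genes. *Dkc1*, which encodes the pseudouridine synthase dyskerin, was at 16.3 to 17.5 CPM in Ctr and 10.8 to 12.03 CPM in αGlu, with a log2 fold change of -0.58 ± 0.089 (edgeR adjusted p = 0.149), and the same value without αGlu 1. The spermidine synthase gene *Srm* and the ribosome biogenesis gene *Nop16* had log2 fold changes of -0.45 ± 0.090 and -0.43 ± 0.090 (edgeR adjusted p = 0.149 and 0.152), and of -0.43 and -0.48 without αGlu 1. For these 3 genes αGlu 1 was near αGlu 2 and 3, which naming by the smallest p over all libraries favours.

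**Figure D3:**
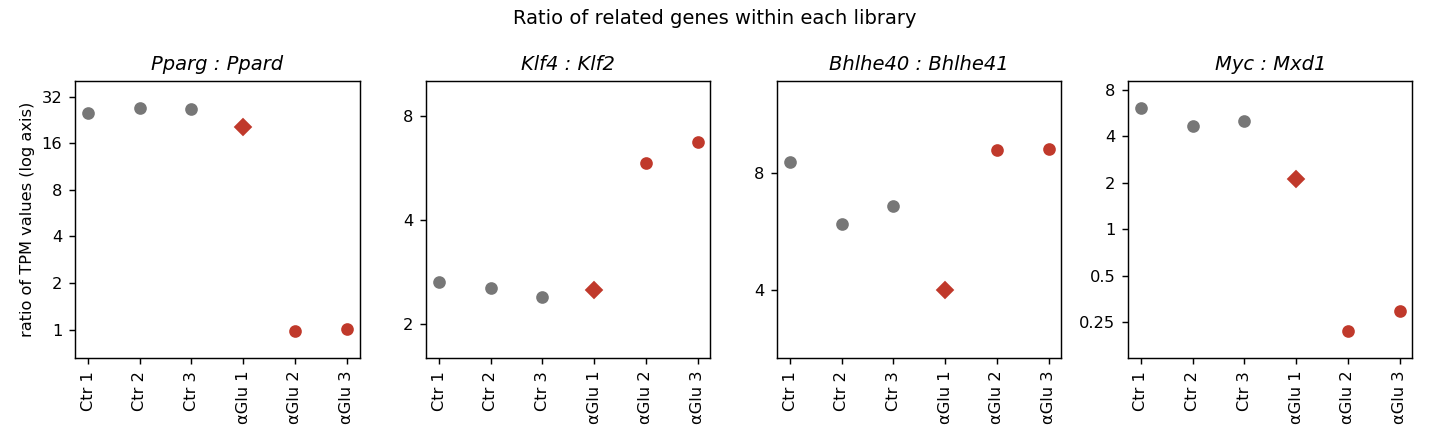
Ratio of the TPM values of 2 related genes within each library (log2-spaced axis), for the 3 Ctr (grey) and 3 αGlu (red, αGlu 1 as a diamond) libraries. The *Pparg* to *Ppard* ratio drops from 25.1 to 27.04 in Ctr to 0.981 and 1.01 in αGlu 2 and 3, and the *Myc* to *Mxd1* ratio from 4.63 to 6.05 to 0.220 and 0.297, while αGlu 1 lies between or beside Ctr except for *Bhlhe40* to *Bhlhe41*.

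*Kdm6b* (chr11:69398508-69413675, minus strand) encodes a demethylase of histone H3 lysine 27. It was at 18.4, 13.1 and 7.70 CPM in Ctr 1, 2 and 3 and at 10.3, 15.96 and 12.8 CPM in αGlu 1, 2 and 3. The groups overlapped fully, and the spread within Ctr was larger than any difference between group means. The log2 fold change was 0.002 ± 0.33 (edgeR adjusted p = 0.996), with a 95% interval from -0.81 to 0.82, and 0.14 ± 0.33 without αGlu 1 (edgeR adjusted p = 0.765). With such a wide interval, a difference inside it was not detectable here. Of 12 genes of enzymes that set or remove this mark, all were tested, 1 lay higher and 2 lower without overlap, as at an unadjusted edgeR p under 0.05, close to the shares of all tested genes (30.2% and 24.7%). edgeR called 0 with or without αGlu 1, and DESeq2 called 0. *Suz12* and *Aebp2*, of the methylating Polycomb complex, had log2 fold changes of 0.30 ± 0.11 and -0.33 ± 0.10, and the histone-binding subunit gene *Rbbp7* had one of -0.35 ± 0.11 (edgeR adjusted p = 0.177, 0.160 and 0.160). Without αGlu 1 they were 0.36, -0.43 and -0.42.

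The E-box repressor genes differed in how αGlu 1 behaved. *Bhlhe40* (chr6:108660629-108666925, plus strand) was at 350.5, 349.8 and 305.6 CPM in Ctr 1, 2 and 3 and at 242.6, 209.4 and 168.6 CPM in αGlu 1, 2 and 3. All αGlu libraries were below Ctr, and αGlu 1 was nearer to αGlu 2 than to any Ctr library. The log2 fold change was -0.70 ± 0.16 (edgeR adjusted p = 0.156), and -0.83 ± 0.13 without αGlu 1, a 1.78-fold lower level (edgeR adjusted p = 0.00347). *Bhlhe41* (chr6:145858243-145865558, minus strand) was at 58.3, 84.2 and 66.3 CPM in Ctr, compared with 86.7, 32.5 and 26.04 CPM in αGlu. Here αGlu 1 had the highest value of all libraries and αGlu 2 and 3 the lowest. With all libraries the log2 fold change was -0.53 ± 0.47 (edgeR adjusted p = 0.487) and -1.25 ± 0.18 without αGlu 1, a 2.39-fold lower level (edgeR adjusted p = 0.00268). With all libraries it was -0.7294 by limma-voom and -0.7348 with the replicate block (adjusted p = 0.324 and 0.387). The ratio of *Bhlhe40* to *Bhlhe41* TPM was 8.59, 5.93 and 6.58 in Ctr and 3.996, 9.21 and 9.25 in αGlu.

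BHLHE40 and BHLHE41 are also repressors of the circadian clock, for which a list of 17 genes was examined. Of 15 tested, 2 lay lower and 0 higher without overlap, fewer than the 15.9% and 14.2% of all tested genes, and the median log2 fold change was 0.053. *Rora*, a nuclear receptor gene of the clock, was at 14.8 to 19.4 CPM in Ctr and 10.9 to 12.7 CPM in αGlu (log2 fold change -0.54 ± 0.13, edgeR adjusted p = 0.156, and -0.59 without αGlu 1). *Npas2*, which encodes an alternative partner of BMAL1, held 101 to 150 reads in Ctr and 52, 6 and 7 reads in αGlu. *Nfil3*, a repressor gene of the clock, was at 50.2 to 67.5 CPM in Ctr, compared with 60.2, 110.9 and 90.7 CPM in αGlu. Without αGlu 1, 3 of the 15 genes were called, all lower, close to the 18.6% of all genes called in that fit, of which 10.5% were lower. They were *Npas2*, *Per3* and *Dbp*, with *Per3* and *Dbp* named after their values were seen.

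**Figure D4:**
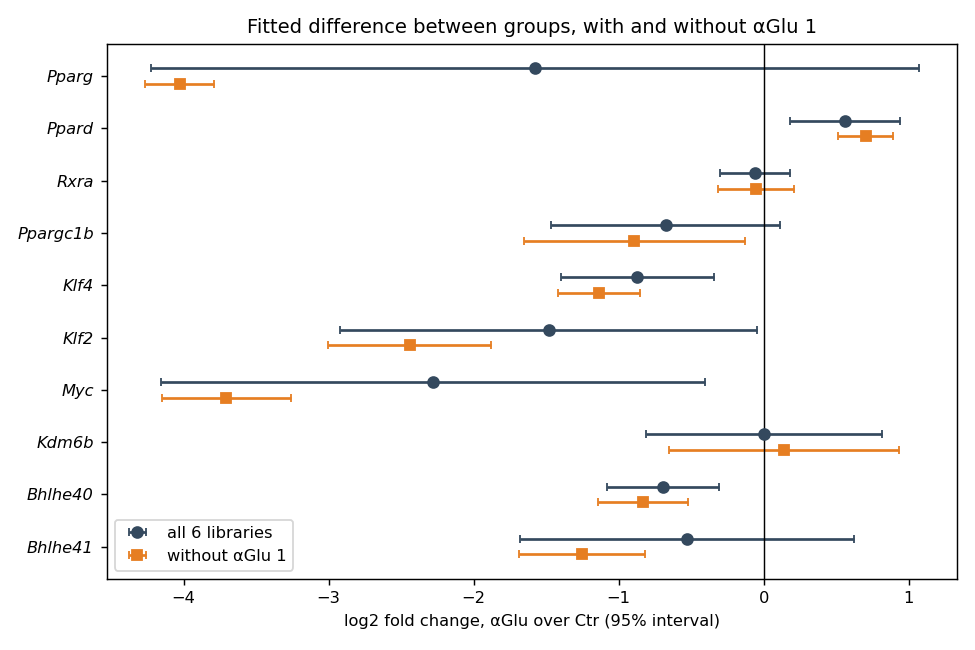
Fitted log2 fold change of each gene, αGlu over Ctr, with its 95% interval (bars), from all 6 libraries (dark circles) and without αGlu 1 (orange squares). Leaving out αGlu 1 moves *Pparg* from -1.58 to -4.03 and *Myc* from -2.28 to -3.71 and narrows their intervals, and it leaves *Rxra* and *Kdm6b* around 0.

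Upstream sequences were available for 6 of the 10 genes in RefSeq (GRCm38.p6), with 9 start sites in all. They were searched on both strands, over the 250 bases before each start, for TTC and GAA with 4 bases between them (a STAT6 site), for AGGTCA repeated after 1 base (a PPAR-RXR site), for CACGTG (an E-box of MYC-MAX and of BHLHE40 and BHLHE41) and for CACCC (a KLF site). The STAT6 and PPAR-RXR letters were found in 0 of the 9 windows, and they occur in 5.85% and 0.0335% of all 32851 promoters in the table. CACGTG was found for *Klf4*, 182 bases before the start, and for *Bhlhe41*, 153 bases before it, and it occurs in 6.02% of all promoters. CACCC was found for *Rxra* (starts 1 and 2), *Pparg* (starts 1 and 2 but not 3), *Bhlhe41* and *Klf2*, and it occurs in 52.0% of all promoters. These shares are per start site, while *Rxra* and *Pparg* had more than 1 start site each. The match of *Klf2* and several of those of *Pparg* and *Bhlhe41* lie in annotated exons and so outside the sequences shown. A match is a description of letters and does not show binding. The sequences of 4 genes that were lower without αGlu 1 are shown, up to the first annotated exon, since 2 of them hold the E-box that other regulators among the 10 are known to bind. Capitals mark the E-box letters and the KLF letters, on either strand.
Klf4, minus strand, chr4:55532476-55532725: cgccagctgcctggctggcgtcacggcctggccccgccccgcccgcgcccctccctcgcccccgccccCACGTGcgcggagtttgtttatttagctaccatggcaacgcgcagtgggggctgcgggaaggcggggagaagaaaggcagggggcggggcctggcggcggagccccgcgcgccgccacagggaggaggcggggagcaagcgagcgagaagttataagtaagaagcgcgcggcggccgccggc
Bhlhe41, minus strand, chr6:145865559-145865670: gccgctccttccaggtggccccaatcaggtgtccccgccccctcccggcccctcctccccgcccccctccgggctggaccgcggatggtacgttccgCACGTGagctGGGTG
Klf2, plus strand, chr8:72318812-72319032: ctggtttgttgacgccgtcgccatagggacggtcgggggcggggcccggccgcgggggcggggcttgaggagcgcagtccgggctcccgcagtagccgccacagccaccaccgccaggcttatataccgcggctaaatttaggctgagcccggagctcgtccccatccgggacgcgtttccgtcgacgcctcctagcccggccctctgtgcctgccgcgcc
Pparg (first start), plus strand, chr6:115360894-115360950: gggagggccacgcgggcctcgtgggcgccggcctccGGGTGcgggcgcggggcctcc

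The order of the 10 genes by level was compared in TPM. In Ctr, *Bhlhe40* and *Pparg* were highest, at 215.0 ± 18.4 and 210.5 ± 7.72 TPM (mean ± SD, n = 3), and their ranges overlapped. *Rxra* followed at 47.4 ± 5.85 TPM, separate from both. *Bhlhe41*, *Myc* and *Klf4* came next, at 31.2 ± 5.50, 29.6 ± 4.49 and 23.8 ± 2.65 TPM. *Myc* overlapped with both of the others, while *Bhlhe41* was separate from *Rxra* above it and *Klf4* from *Klf2* below it. *Klf2*, *Ppargc1b*, *Ppard* and *Kdm6b* formed the lowest group, at 9.45 ± 1.39, 8.88 ± 3.60, 7.99 ± 0.401 and 5.68 ± 2.41 TPM, each overlapping with the one above it except *Klf2*. In αGlu, the means were 140.1 ± 21.2 TPM for *Bhlhe40*, 73.3 ± 102.8 for *Pparg* and 48.1 ± 2.21 for *Rxra*. Those of the others were 22.8 ± 15.03 TPM for *Bhlhe41*, 13.8 ± 3.59 for *Klf4*, 12.5 ± 2.67 for *Ppard*, 6.50 ± 7.02 for *Myc*, 6.01 ± 1.37 for *Kdm6b*, 5.86 ± 1.27 for *Ppargc1b* and 3.62 ± 3.04 for *Klf2*. The SDs of *Pparg* and *Myc* exceeded their αGlu means, since αGlu 1 was far above αGlu 2 and 3. Over the latter libraries alone, *Pparg* was the fifth in order at 13.9 TPM, next to *Ppard* at 14.03 and *Bhlhe41* at 14.1 TPM, while *Rxra* was second at 49.2 TPM.

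The genes with the most similar pattern were sought by Pearson's r of log2 CPM over the 6 libraries, among 8365 genes whose log2 CPM averaged 3 or more. Since αGlu 2 and 3 dominate such an r, it is given as a description, and for *Pparg* 856 genes exceeded an r of 0.95. The 2 nearest were *Bcar3* and *Spg21* for *Pparg* (both r = 0.9996), *Alkbh5* and *Eea1* for *Ppard* (0.9987 and 0.9978), *Qdpr* and *Ank* for *Myc* (0.9999 and 0.9994), *H2-DMa* and *Ammecr1* for *Klf4* (0.9998 and 0.998) and *Cisd1* and *Mtpn* for *Klf2* (0.999 and 0.9984). *Bcar3* was at 107.7 to 112.5 CPM in Ctr and 96.7, 15.5 and 14.7 CPM in αGlu, so that its level in Ctr was lower than that of *Pparg* and its difference smaller. *Lgals3* and *Cgnl1* were nearest to *Bhlhe40* (0.999 and 0.9978) and *Zfand2a* and *Gab2* to *Bhlhe41* (0.9988 and 0.9954). *Zc3h18* and *Nomo1* were nearest to *Ppargc1b* (0.9973 and 0.9917). *Rxra* and *Kdm6b* had few close matches, with 6 and 4 genes above 0.95, led by *Slc35e3* and *Dffa* for *Rxra* (0.9694 and 0.9618) and by *Plec* and *Atp5d* for *Kdm6b* (0.9754 and 0.9711). Among the 10 genes themselves, over the same 6 libraries, *Pparg* had an r of 0.9852 with *Klf2*, 0.9748 with *Myc* and -0.9686 with *Ppard*, and *Kdm6b* had one of -0.002592 with *Bhlhe40*.

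IL-4 and IL-13 response genes did not move one way while 7 of the 10 regulators were lower in αGlu 2 and 3. Of 20 listed genes, 16 were tested, with 2 higher and 5 lower in αGlu without overlap (30.2% of all tested genes in either direction) and a median log2 fold change of 0.66. Without αGlu 1, 17 passed the low-count filter and 14 of them were called, 8 higher and 6 lower, against 18.6% of all genes, 8.05% higher and 10.5% lower. *Ccl22*, a type 2 chemokine gene, was at 9.57 to 13.04 CPM in Ctr and 2.47, 1.60 and 0.990 CPM in αGlu (log2 fold change -2.75 ± 0.34, edgeR adjusted p = 0.149, and -3.10 without αGlu 1). *Mgl2*, a C-type lectin gene of M2 Mφs, held 1587 to 1935 reads in Ctr and 185, 16 and 64 reads in αGlu. *Irf4*, which encodes a transcription factor induced by IL-4, was at 25.3 to 30.4 CPM in Ctr and 8.95, 2.05 and 1.54 CPM in αGlu. For these 3 genes αGlu 1 was below all Ctr libraries, as it was for *Pparg*, *Klf4*, *Klf2*, *Myc* and *Bhlhe40*. Naming by the smallest p over all libraries favours such genes. *Il4ra*, the receptor chain gene for both cytokines, was higher, with 61.1 to 66.3 CPM in Ctr and 78.2, 509.8 and 643.3 CPM in αGlu. The 8 genes called higher without αGlu 1, next to 6 called lower, also held *Arg1* and *Mrc1*, which the study used as anti-inflammatory markers. *Arg1* was at 24.3 to 45.2 CPM in Ctr and 23.5, 1886 and 1792 CPM in αGlu. *Mrc1* was at 771.4 to 948.3 CPM in Ctr and 840.3, 1513 and 2379 CPM in αGlu. *Chil3*, which encodes Ym1, another anti-inflammatory marker of the study, overlapped between groups and was not called. Its log2 fold change was 0.50 with all libraries and 0.47 without αGlu 1 (edgeR adjusted p = 0.353 and 0.300). *Retnla*, among the 6 called lower, held 11877, 5873 and 6231 reads in Ctr and 1766, 1 and 1 reads in αGlu. *Il4ra*, *Arg1*, *Mrc1*, *Chil3* and *Retnla* were named after their values were seen.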

How the data were processed

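Stranded mRNA libraries of 6 M2 Mφ samples were sequenced by the authors and processed in the RNA-seq Analysis Portal of QIAGEN. Per the labels the build was GRCm38. For the aligner, the annotation and the treatment of multi-mapping reads, details are not given in the sources used here. The deposited counts are whole reads over the exons of each gene, without normalization, and the deposited TPM values were scaled by the authors for exon length and depth. Counts served for all tests and TPM for comparing levels between genes. The deposited RPKM and CPM columns were not used here.

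Low-count genes were filtered by filterByExpr (edgeR 4.0.16 in R 4.3.3) at a minimum count of 10 and a minimum total of 15, leaving 11933 of 41549 genes and all 10 regulators. All 6 libraries entered a quasi-likelihood negative binomial model with TMM factors (0.951 to 1.07) and a term for the group alone. Two-sided p-values were adjusted over all tested genes by the Benjamini-Hochberg method, and a call needed an adjusted p under 0.1 together with a log2 fold change beyond 1 in either direction. Ratios are αGlu over Ctr. The F statistic of each gene gave its standard error. Printed CPM values use the library sizes after TMM scaling, with a prior count of 2 on the log2 scale. The models were tested on simulated data. No 2 libraries agreed within sampling noise (chi-square per gene at least 19.8 for each pair), so all were counted. The p-values measure the spread between the libraries in each fit, and those without αGlu 1 lack the spread that it adds. The depth of each library sets the counting error only.

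The alternatives were DESeq2 1.42.0, limma-voom (limma 3.58.1), an edgeR likelihood-ratio test, upper-quartile and RLE factors, no factors beyond library size, both a looser and a stricter filter, no limit on the fold change, the replicate number as a block and each library left out in turn. Of the gene lists, the named genes are the 10 regulators, the 3 genes of each list with the smallest unadjusted p and the 2 genes most like each regulator in pattern, and others are said to have been named after their values were seen. The regulators and the lists were chosen with earlier results of these data known. A numeric suffix splits 175 gene names in the table, none of them among the 10. Gene positions are those of GENCODE release M21 for the same build, and genes overlapping the 10 on the opposite strand reached at most 0.0574 CPM.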

Additional observations from a re-analysis of the deposited data

How the results depend on the processing

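The number of genes called across the table moved from 0 to 1119 with DESeq2, 899 with the likelihood-ratio test and 17 with the replicate block, and ranged from 0 to 2290 when 1 library was left out, with the highest value without αGlu 1 and 0 without any other. Among the 10 regulators it was 2 with DESeq2, 1 with the likelihood-ratio test, 0 with the replicate block and 0 to 5 with 1 library left out. It was 9 and 8 for the IL-4 and IL-13 response list with DESeq2 and the likelihood-ratio test, 1 and 1 for the other KLF genes, and 1 for the nuclear receptor partners with the likelihood-ratio test. With 1 library left out it ranged from 0 to 14, 0 to 3 and 0 to 1 for these lists, from 0 to 8 for the PPAR-RXR targets and from 0 to 3 for the clock genes, each time with the highest value without αGlu 1. Limma-voom, the other factors and filters, and no limit on the fold change called 0 genes. The number of regulators without overlap was 6 under each scaling and 6 to 8 with 1 library left out, with 7 without Ctr 3 and 8 without αGlu 1. Signs reversed only for *Rxra* and *Kdm6b*. The log2 fold change of *Rxra* was 0.024 with library size alone and 0.037 without Ctr 1, and ranged from -0.12 to 0.037 with 1 library left out. That of *Kdm6b* was -0.0083 with DESeq2, -0.0046 with RLE factors, and ranged from -0.27 to 0.34 with 1 library left out, with -0.0013 without Ctr 2, -0.27 without Ctr 3 and -0.17 without αGlu 2. The cause was not tested. In a check of the pairing, the residuals around the group means correlated at 0.076, 0.065 and 0.15 between libraries with the same number and at -0.11 to 0.046 between others. Every library correlated best with its own number, which is a hint from the data. The study used a paired test for the fragment's level in such Mφs given either inhibitor, but does not state pairing for these libraries. The labels give no shared source, so the replicate block is an alternative only. With library size alone the median of all genes was 0.1 on the log2 scale, against 0.016. With 27 to 146 reads, *Klf2* was the least deeply counted regulator.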
